A study of Mus musculus with 12 samples.

Results

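The genes described here encode subunits of the mitochondrial respiratory chain and ATP synthase, together with assembly factors of complex I, in cultured mouse dendritic cells that met dead cells. Members were chosen by symbol alone (Nduf genes, Sdha to Sdhd, Uqcr genes, Cox4 to Cox8 genes and Atp5 genes), and a gene entered where an array row carried its symbol and no other. This gave 60 genes of the 14807 genes with such a row, each with 1 row. There were 27 complex I subunits, 6 complex I assembly factors (Ndufaf genes, which are not subunits of the finished enzyme), 4 subunits of complex II, 5 of complex III, 10 of complex IV and 8 of complex V, the ATP synthase. RefSeq holds 96 protein-coding genes whose symbols fit the rule. The other 36 were not analysed here. The arrays also held 7 rows with several symbols, 1 of which fits the rule, and these rows were not used.

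The samples were CD8α+-like dendritic cells of the C57BL/6 strain, grown from bone marrow in medium with 100 ng/ml of Flt3 ligand over 10 days and sorted as CD24-high, CD11b-low and B220-negative cells. They correspond to the conventional type 1 dendritic cell (cDC1), which takes up dead cells and presents their antigens. There were 3 arrays in each of 4 groups, namely Clec9a gfp/gfp cells with dead cells, untreated Clec9a gfp/gfp cells, wild-type (WT) cells with dead cells, and untreated WT cells. The gfp allele of Clec9a removes DNGR-1, a receptor for dead cells. These targets had been killed with a UVC dose of 240 mJ/cm2 and 24 h of culture before contact, which lasted 5 h. The untreated cells are labelled 0 h, so dead cells and 5 h of further culture cannot be told apart. The labels do not say whether replicates came from separate animals or cultures, so a p-value here covers the spread between these arrays and no more, and that spread may be technical.

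Complexes I to IV pass electrons from NADH and succinate through ubiquinone and cytochrome c to oxygen. Complexes I, III and IV pump protons as they do so, and complex V makes ATP from the resulting gradient. All of these complexes except complex II combine subunits encoded in the nucleus with subunits encoded in mitochondrial DNA. Dendritic cells are known to move from oxidative phosphorylation to glycolysis after strong activation, and nitric oxide made by inducible nitric oxide synthase can block complex IV. Only nuclear genes were measured here, since 0 of the 13 mitochondrially encoded subunits had a row with a single symbol.

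Values are array intensities on a linear scale, which have no depth, and the number of arrays limits their precision. Intensities of different genes cannot be set against each other. Median intensity was 77.9 to 85.9 on the 6 arrays with dead cells and 93.6 to 101 on the 6 untreated arrays, and the upper quartile was 231 to 259 against 396 to 437. Changes are therefore given on a deposited scale, log2(deposited intensity + 16), and again after quantile normalization, which gives all arrays the same distribution of intensities. A change is dead cells minus untreated, and a gene was said to rise or fall where limma's p, adjusted by the Benjamini-Hochberg method over all 23238 rows, was under 0.05. Clec9a lay at 0.590 to 3.99 on the Clec9a gfp/gfp arrays with dead cells and at 0.00864 to 4.16 on the untreated ones, against 1372 to 1496 and 2581 to 2648 on the WT arrays, so the genotype labels held. Of 10 measured cDC1 markers, 7 were lower with dead cells in the Clec9a gfp/gfp groups and 8 in WT cells, and Clec9a on the 6 Clec9a gfp/gfp arrays was the only one below an intensity of 16 on any array. Clec9a is among these 10. It fell in WT cells (-0.85) and, with hardly any signal on the Clec9a gfp/gfp arrays, could not fall there. On the deposited scale 32.1% of all rows fell in Clec9a gfp/gfp cells and 31.0% in WT cells.

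Most transcripts of complexes I, II, III and V fell with dead cells on the deposited scale, with the deepest single falls in complex I and its assembly factors, while in complex IV 5 of 10 genes fell in Clec9a gfp/gfp cells and 2 of 10 in WT cells. Of these 10 complex IV genes 6 had a mean intensity of at least 100, against 26 of the 27 complex I subunits. The 5 complex IV genes that fell in Clec9a gfp/gfp cells were all among these 6, as were the 2 in WT cells. The added 16 understates the change of dim genes. On the deposited scale 53 of the 60 members fell and 1 rose in Clec9a gfp/gfp cells, with a median change of -0.78, and 48 fell and 1 rose in WT cells, with a median of -0.74. Over all rows 32.1% fell and 16.6% rose in Clec9a gfp/gfp cells (median -0.050), and 31.0% fell and 14.5% rose in WT cells (median -0.045). The member that rose was Atp5j2 in each genotype. All 48 genes that fell in WT cells also fell in Clec9a gfp/gfp cells. At least a 2-fold fall, on the log2(intensity + 16) scale, was seen for 22 members in Clec9a gfp/gfp cells and for 20 in WT cells. The share of all rows with a fall of that size is not given here, so these 2-fold counts do not set the members apart.

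The members are mostly bright on the arrays, with 43 of 60 in the brightest 25% of rows, and bright rows fell more often than dim ones. In that bright class 56.9% of rows fell in Clec9a gfp/gfp cells (median -0.49) and 54.3% in WT cells (median -0.42). After quantile normalization 33 members fell and 3 rose in Clec9a gfp/gfp cells, with a median of -0.47, and 34 fell and 3 rose in WT cells, with a median of -0.41. Over all rows the quantile-normalized counts were 24.3% lower and 28.5% higher in Clec9a gfp/gfp cells, and 24.2% lower and 27.0% higher in WT cells, with medians of 0.097 and 0.10. In the bright class 40.1% fell in Clec9a gfp/gfp cells (median -0.062) and 39.8% in WT cells (median -0.050) on this scale. Members that fell on both scales numbered 33 in Clec9a gfp/gfp cells and 34 in WT cells, and 32 of them were shared between the genotypes.

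**Figure D1:**
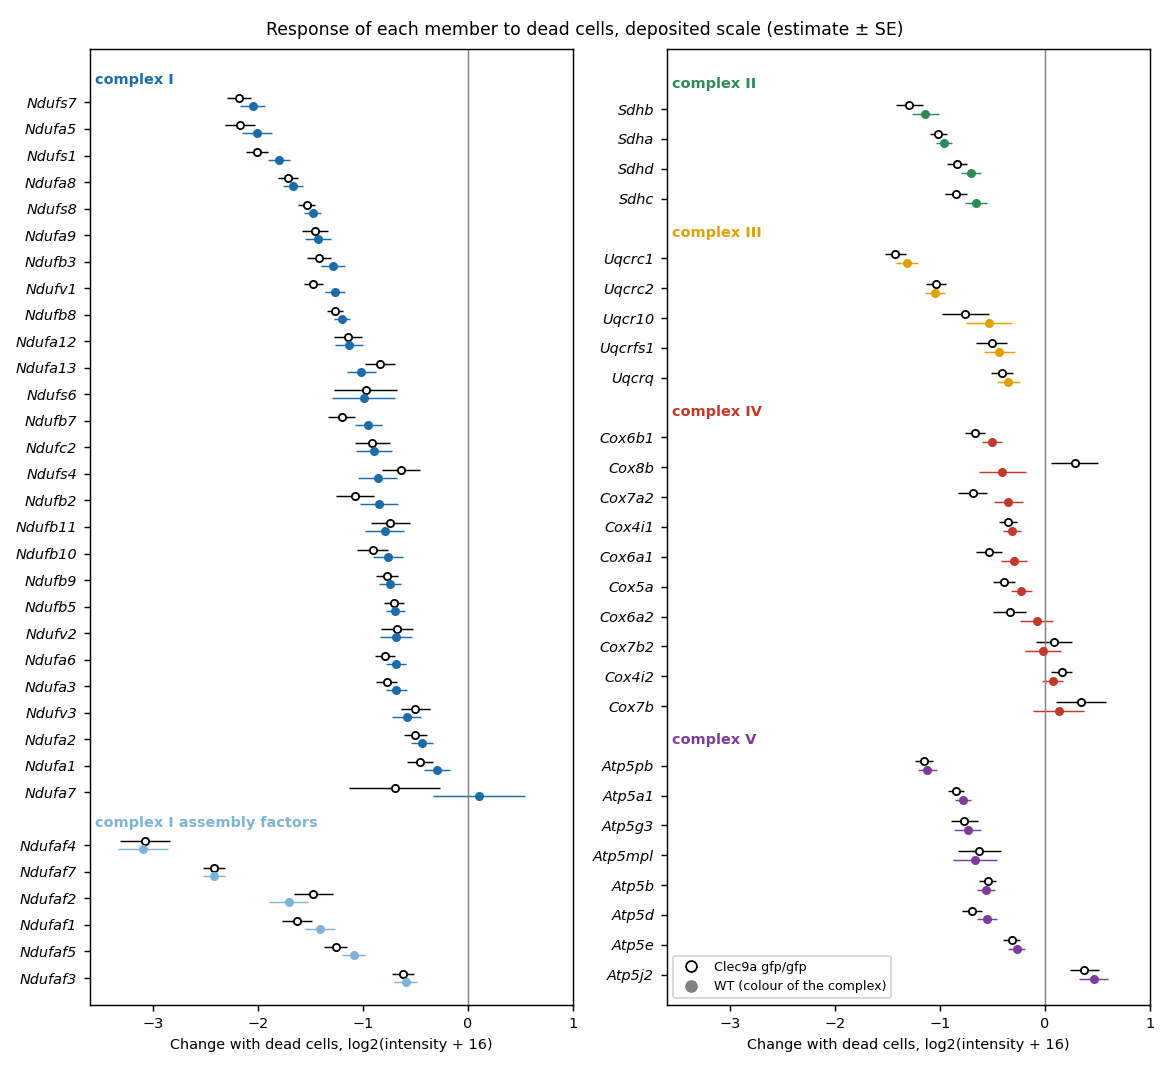
Change of each of the 60 members with dead cells on the deposited log2(intensity + 16) scale, grouped by complex and ordered by the WT change; open points are Clec9a gfp/gfp, filled points WT, and bars the standard error of limma's estimate (3 arrays in each group). Complex I assembly factors reach -3.07 in Clec9a gfp/gfp cells and -3.10 in WT cells, while the complex IV estimates lie between -0.69 and 0.34 in Clec9a gfp/gfp cells and between -0.50 and 0.13 in WT cells.

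**Figure D2:**
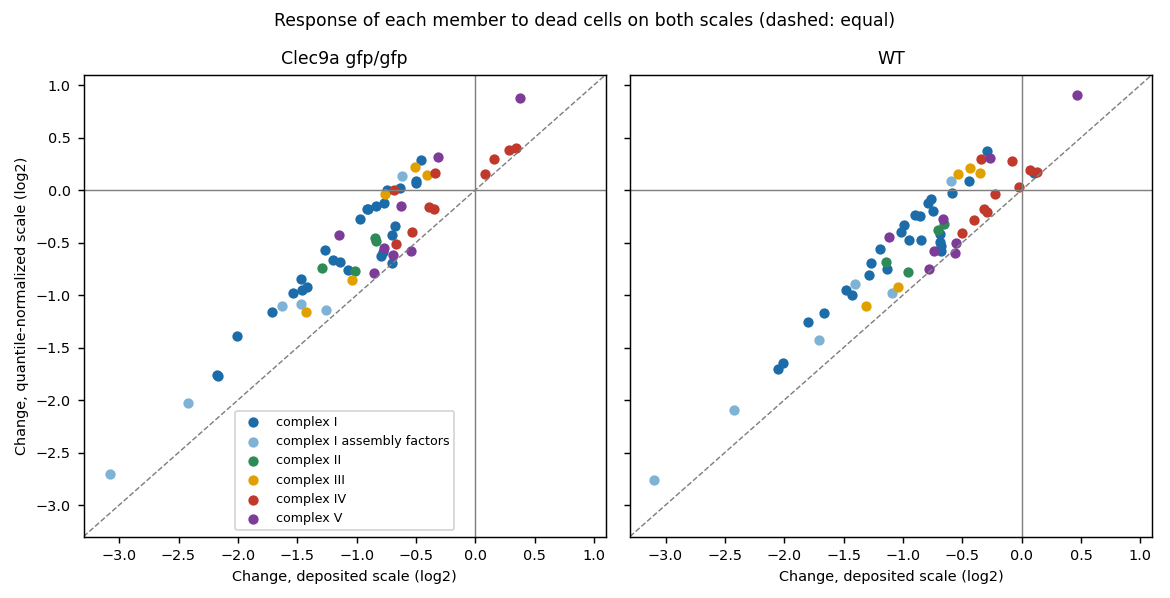
Change of each member on the deposited scale (x axis) and after quantile normalization (y axis), both in log2 units, with Clec9a gfp/gfp cells in the left panel and WT cells in the right panel; the dashed line marks equal values. Most points lie above the dashed line, and on the y axis complex IV members lie between -0.52 and 0.40 in Clec9a gfp/gfp cells and between -0.41 and 0.29 in WT cells, complex III splits between Uqcrc1 and Uqcrc2 (-1.16 and -0.86 in Clec9a gfp/gfp cells) and 3 genes near or above 0, and the strongest complex I and assembly factor falls stay below -1.

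Complex I takes electrons from NADH in its matrix arm, hands them to ubiquinone where that arm meets the membrane, and pumps protons in its membrane arm. Of its 27 measured subunits, 26 fell in Clec9a gfp/gfp cells (median -0.91) and 25 in WT cells (median -0.90) on the deposited scale. After quantile normalization 15 fell and 0 rose in Clec9a gfp/gfp cells (median -0.59), and 17 fell and 1 rose in WT cells (median -0.48). All 3 parts of the enzyme took part. The ubiquinone module had the lowest median, -1.54 over 5 genes in Clec9a gfp/gfp cells and -1.48 in WT cells. The NADH module, with 8 genes, had medians of -0.82 and -0.93 in the same order, and the membrane arm and junction, with 14 genes, had -0.91 and -0.87.

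Ndufs7 carries the last iron-sulphur cluster before ubiquinone. It had intensities of 439, 360 and 437 in Clec9a gfp/gfp cells with dead cells, against 1751, 2183 and 1831 in untreated Clec9a gfp/gfp cells. The WT arrays gave 468, 403 and 429 with dead cells, against 1954, 1836 and 1744 without. Every array with dead cells lay far below every untreated one, and the change was -2.18 ± 0.12 in Clec9a gfp/gfp cells and -2.05 ± 0.12 in WT cells (log2 ± SE, limma, adjusted p = 5.11e-08 and 7.72e-08).

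Ndufa5, an accessory subunit of the matrix arm, had 45.8, 51.9 and 62.2 in Clec9a gfp/gfp cells with dead cells, against 306, 305 and 274 untreated. In WT cells the intensities were 49.8, 78.5 and 52.0 with dead cells, against 271, 302 and 288. The groups did not overlap in either genotype, and the change was -2.17 ± 0.14 in Clec9a gfp/gfp cells and -2.01 ± 0.14 in WT cells (log2 ± SE).

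Ndufs1, the large iron-sulphur subunit of the NADH module, had 209, 206 and 245 in Clec9a gfp/gfp cells with dead cells, against 922, 879 and 991 untreated. The WT values were 279, 228 and 267 with dead cells, against 944, 974 and 886. The fall was about as deep in each genotype, with a change of -2.01 ± 0.10 in Clec9a gfp/gfp cells and -1.80 ± 0.10 in WT cells (log2 ± SE). After quantile normalization Ndufs7, Ndufa5 and Ndufs1 still fell, by 1.76, 1.77 and 1.39 in Clec9a gfp/gfp cells and by 1.70, 1.64 and 1.26 in WT cells.

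Ndufv1 and Ndufs8, further core subunits of the electron path, fell on both scales. The change of Ndufv1, which binds NADH and the flavin that accepts its electrons, was -1.47 in Clec9a gfp/gfp cells and -1.27 in WT cells. For Ndufs8, an iron-sulphur subunit beside Ndufs7, it was -1.54 and -1.48 in the same order. Ndufv2, another core iron-sulphur subunit and named after its values were seen, fell by 0.67 in Clec9a gfp/gfp cells and by 0.69 in WT cells on the deposited scale, while its quantile-normalized changes were -0.34 and -0.42 (adjusted p = 0.0796 and 0.0372). Ndufa1 and Ndufa7, both singled out after their values were seen, were the subunits that did not pass the test in WT cells. Ndufa1, a small membrane arm subunit, fell in Clec9a gfp/gfp cells (-0.46) and had a WT change of -0.29 with an adjusted p of 0.0832, while after quantile normalization it rose in WT cells (0.38). Ndufa7 was dim and spread over 8.29 to 81.6 across the 12 arrays, and its groups overlapped in each genotype, with deposited-scale changes of -0.70 in Clec9a gfp/gfp cells and 0.11 in WT cells (adjusted p = 0.218 and 0.868).

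The complex I assembly factors, which build and modify the enzyme but do not stay in it, had a lower median than the subunits they serve. All 6 measured Ndufaf genes fell in each genotype on the deposited scale, with a median of -1.55 in Clec9a gfp/gfp cells and -1.56 in WT cells, and 5 of 6 also fell after quantile normalization (medians -1.12 and -1.21). The exception on the second scale was Ndufaf3, which was named after its values were seen and had quantile-normalized changes of 0.13 and 0.090. Whether the assembly factors and the subunits differ was not tested.

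Ndufaf4, which acts early in building the ubiquinone module, was the member with the deepest fall. It had intensities of 35.3, 16.1 and 19.9 in Clec9a gfp/gfp cells with dead cells, against 342, 232 and 380 untreated. In WT cells it had 29.9, 33.0 and 14.2 with dead cells, against 314, 365 and 322. These low values lie near the added 16, which shrinks the change, and even so it was -3.07 ± 0.24 in Clec9a gfp/gfp cells and -3.10 ± 0.24 in WT cells (log2 ± SE, limma, adjusted p = 7.86e-07 and 7.94e-07).

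Ndufaf7, a methyltransferase, had 43.7, 46.2 and 39.1 in Clec9a gfp/gfp cells with dead cells, against 315, 279 and 302 untreated. The WT arrays with dead cells gave 36.5, 44.3 and 32.3, against 280, 289 and 244. Its replicates were tight, and the change was -2.42 ± 0.11 in each genotype (log2 ± SE). Ndufaf2, a late-acting factor related to the subunit Ndufa12, changed by -1.47 ± 0.19 in Clec9a gfp/gfp cells and by -1.71 ± 0.19 in WT cells, with no overlap between arrays.

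**Figure D3:**
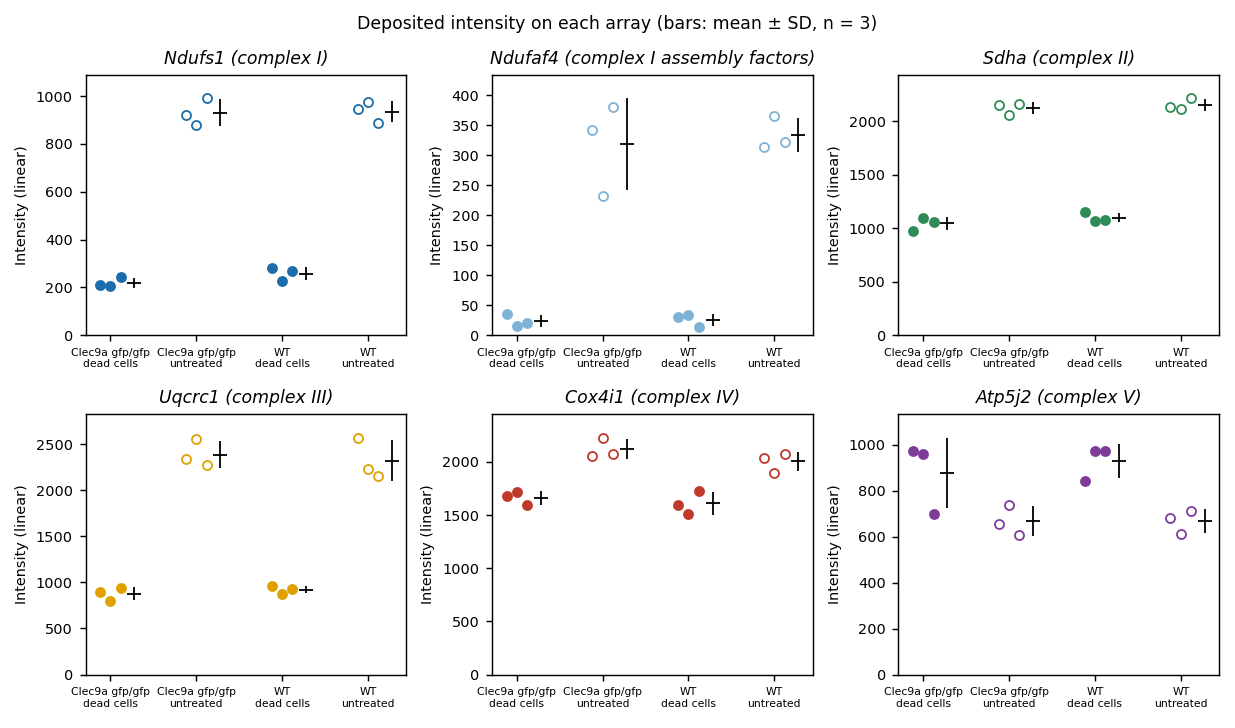
Deposited intensity on each array for 1 member of every complex and for Ndufaf4, from a baseline of 0, with filled points for dead cells, open points for untreated cells and bars for the mean ± SD of 3 arrays; groups run from Clec9a gfp/gfp with dead cells to untreated WT. Ndufs1, Ndufaf4, Sdha, Uqcrc1 and Cox4i1 are lower on every array with dead cells, and Atp5j2 is higher, with overlap in the Clec9a gfp/gfp groups only.

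Complex II, or succinate dehydrogenase, oxidises succinate in the tricarboxylic acid (TCA) cycle and feeds the electrons into ubiquinone without pumping protons. All 4 of its subunits fell in each genotype and on both scales. The median change was -0.93 in Clec9a gfp/gfp cells and -0.83 in WT cells on the deposited scale, and -0.62 and -0.54 after quantile normalization.

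Sdhb, the iron-sulphur subunit, had intensities of 348, 415 and 459 in Clec9a gfp/gfp cells with dead cells, against 1168, 890 and 1002 untreated. In WT cells it had 432, 459 and 496, against 995, 995 and 1123. The groups were well apart, with a change of -1.29 ± 0.13 in Clec9a gfp/gfp cells and -1.14 ± 0.13 in WT cells (log2 ± SE). Sdha, the flavoprotein that oxidises succinate, had 976, 1099 and 1057 in Clec9a gfp/gfp cells with dead cells, against 2147, 2056 and 2164 untreated, and 1152, 1067 and 1080 in WT cells with dead cells, against 2131, 2112 and 2215 untreated. The groups did not overlap, with changes of -1.01 ± 0.079 and -0.96 ± 0.079. Sdhd, a membrane anchor, changed by -0.84 ± 0.095 in Clec9a gfp/gfp cells and by -0.71 ± 0.095 in WT cells.

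In complex III, which passes electrons from ubiquinol to cytochrome c, the counts depended on the scale. Of 5 measured subunits, 5 fell in Clec9a gfp/gfp cells (median -0.76) and 4 in WT cells (median -0.53) on the deposited scale. After quantile normalization only Uqcrc1 and Uqcrc2, the core proteins, were below the threshold in each genotype, and the medians were -0.035 in Clec9a gfp/gfp cells and 0.15 in WT cells.

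Uqcrc1 had intensities of 895, 798 and 944 in Clec9a gfp/gfp cells with dead cells, against 2338, 2554 and 2272 untreated. The WT arrays with dead cells read 957, 877 and 931, against 2573, 2228 and 2157. The change was -1.43 ± 0.10 in Clec9a gfp/gfp cells and -1.31 ± 0.10 in WT cells on the deposited scale, and -1.16 and -1.11 after quantile normalization. Uqcrc2 changed by -1.04 ± 0.097 in Clec9a gfp/gfp cells and by -1.05 ± 0.097 in WT cells, and by -0.86 and -0.93 after quantile normalization.

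Uqcrfs1, the Rieske iron-sulphur protein that takes the first electron from ubiquinol, changed direction with the scale. It had 280, 362 and 322 in Clec9a gfp/gfp cells with dead cells, against 491, 429 and 467 untreated, and 323, 283 and 401 in WT cells with dead cells, against 427, 413 and 533. On the deposited scale it fell by 0.51 ± 0.15 in Clec9a gfp/gfp cells and by 0.43 ± 0.15 in WT cells, whereas the quantile-normalized changes were 0.22 and 0.21, with adjusted p-values of 0.238 and 0.243. Its WT call on the deposited scale was also lost without WT dead-cell replicate 1 or 2 or untreated WT replicate 3 (adjusted p 0.0808 to 0.127), and its Clec9a gfp/gfp call without dead-cell replicate 1 or untreated replicate 1 of that genotype (adjusted p = 0.0598 and 0.0505).

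Complex IV, cytochrome c oxidase, transfers the electrons to oxygen, and on the deposited scale it was the complex with the median nearest 0. Of 10 measured genes, 5 fell in Clec9a gfp/gfp cells (median -0.34) and 2 in WT cells (median -0.26) on the deposited scale. None fell by 2-fold or more. The 5 in Clec9a gfp/gfp cells were Cox4i1 (-0.35), Cox5a (-0.39, named after its values were seen), Cox6a1 (-0.54), Cox6b1 (-0.66) and Cox7a2 (-0.69). With Cox6a2, they were the 6 genes with a mean intensity of at least 100. Those in WT cells were Cox4i1 and Cox6b1. The dimmer Cox4i2, Cox7b, Cox7b2 and Cox8b fell in neither genotype, and their changes are understated. The medians here include them. After quantile normalization 2 of the 10 genes fell and 1 rose in Clec9a gfp/gfp cells (median 0.077), and 1 fell in WT cells (median -0.0030). Complex IV has pairs of genes for one subunit, a widely expressed form and a form limited to some tissues or conditions.

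Cox6b1, a subunit that faces the intermembrane space, fell in each genotype on both scales. It had intensities of 1783, 1891 and 1722 in Clec9a gfp/gfp cells with dead cells, against 2799, 3235 and 2577 untreated, and 1763, 1722 and 1885 in WT cells with dead cells, against 2487, 2523 and 2595. The change was -0.66 ± 0.096 in Clec9a gfp/gfp cells and -0.50 ± 0.096 in WT cells, and -0.52 and -0.41 after quantile normalization. When arrays were shifted to one median instead, the WT change was -0.28 with an adjusted p of 0.0542.

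Cox4i1, the common form of a regulatory subunit, had 1679, 1715 and 1591 in Clec9a gfp/gfp cells with dead cells, against 2059, 2230 and 2079 untreated. In WT cells it had 1591, 1513 and 1726, against 2038, 1900 and 2077. It fell slightly on the deposited scale, by 0.35 ± 0.084 in Clec9a gfp/gfp cells and by 0.31 ± 0.084 in WT cells, and no longer passed the test after quantile normalization (adjusted p = 0.124 and 0.134). Cox4i2, the form linked to low oxygen and to lung, was dim, at 70.0 to 75.6 in Clec9a gfp/gfp cells with dead cells against 54.1 to 74.6 untreated, and at 64.8 to 70.7 against 61.1 to 66.1 in WT cells. Its groups overlapped in each genotype, with deposited-scale changes of 0.16 and 0.074. In Clec9a gfp/gfp cells it passed the threshold after quantile normalization (0.30, adjusted p = 0.0470).

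The widely expressed Cox6a1 had 1847, 1838 and 1938 in Clec9a gfp/gfp cells with dead cells, against 2709, 3143 and 2377 untreated, and fell by 0.54 ± 0.12. In WT cells its groups overlapped, at 1888, 1895 and 2276 against 2726, 2233 and 2470, with a change of -0.29 ± 0.12 that missed the threshold (adjusted p = 0.0786), though it passed without WT dead-cell replicate 3 (-0.38, adjusted p = 0.0365). With arrays shifted to one median, the Clec9a gfp/gfp change of Cox6a1 was -0.30 with an adjusted p of 0.0901. Its heart and muscle partner Cox6a2, which is also a marker of plasmacytoid dendritic cells, lay at 118 to 132 in Clec9a gfp/gfp cells with dead cells against 133 to 191 untreated, and at 90.6 to 127 against 96.5 to 131 in WT cells. The estimates of Cox6a2 were -0.34 ± 0.16 and -0.078 ± 0.16 and passed no threshold with all arrays included.

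Cox7a2 fell in Clec9a gfp/gfp cells (-0.69 ± 0.14, adjusted p = 0.00151) and missed the threshold in WT cells (-0.35 ± 0.14, adjusted p = 0.0631), where it nevertheless lay at 361 to 397 with dead cells against 472 to 510 untreated. On the deposited scale the WT change passed limma's threshold in a fit of only the groups compared (adjusted p = 0.0194). It also passed with the dimmest 25% of rows left out (adjusted p = 0.0431), a pseudocount of 64 (0.0470) or trended and robust eBayes (0.0485). After quantile normalization the changes of Cox7a2 were 0.00487 and 0.29. Cox7b had intensities of 18.6 to 46.2 on all 12 arrays, Cox7b2 of 0.00080 to 8.69 and Cox8b, the heart form of subunit VIII, of 38.0 to 117, and none of these 3 passed the test in either genotype on either scale.

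Complex V holds the catalytic alpha and beta subunits (Atp5a1, Atp5b), a central stalk, a ring of subunit c in the membrane and a peripheral stalk. Of 8 measured genes, 7 fell and 1 rose in each genotype on the deposited scale, with medians of -0.66 in Clec9a gfp/gfp cells and -0.61 in WT cells. After quantile normalization 5 fell and 2 rose in each genotype, with medians of -0.49 and -0.48.

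Atp5pb, subunit b of the peripheral stalk, had intensities of 214, 243 and 205 in Clec9a gfp/gfp cells with dead cells, against 495, 488 and 546 untreated. With dead cells the WT arrays read 218, 215 and 211, against 493, 457 and 507. Its change was -1.15 ± 0.089 in Clec9a gfp/gfp cells and -1.12 ± 0.089 in WT cells, and -0.42 and -0.45 after quantile normalization. Atp5a1, the alpha subunit, was lower with dead cells on every array, at 2596, 2538 and 2670 in Clec9a gfp/gfp cells with dead cells against 4633, 4549 and 4924 untreated, and at 2596, 2591 and 2811 in WT cells with dead cells against 4573, 4613 and 4576. Its changes of -0.85 ± 0.075 and -0.78 ± 0.075 were -0.79 and -0.75 after quantile normalization. Atp5g3, one of the genes for subunit c and the only one measured here, changed by -0.77 ± 0.13 in Clec9a gfp/gfp cells and by -0.74 ± 0.13 in WT cells.

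Atp5j2, subunit f of the membrane part, was the only member that rose on both scales. It had 974, 961 and 701 in Clec9a gfp/gfp cells with dead cells, against 658, 738 and 607 untreated. In WT cells it had 844, 972 and 974, against 683, 612 and 713. The WT groups did not overlap, while in Clec9a gfp/gfp cells the third array with dead cells lay within the untreated range. Its change was 0.38 ± 0.14 in Clec9a gfp/gfp cells and 0.46 ± 0.14 in WT cells on the deposited scale (log2 ± SE, limma, adjusted p = 0.0412 and 0.0167), and 0.88 and 0.90 after quantile normalization. On the deposited scale the WT call was lost without WT dead-cell replicate 2 or 3 or untreated WT replicate 2 (adjusted p = 0.0538, 0.0507 and 0.0657). Leaving out Clec9a gfp/gfp dead-cell replicate 1 or 2, untreated Clec9a gfp/gfp replicate 1 or 3, WT dead-cell replicate 2 or untreated WT replicate 1 or 3 ended the Clec9a gfp/gfp call (adjusted p 0.0513 to 0.141), as did the replicate number as a block (adjusted p = 0.0597) and a fit of only the groups compared (adjusted p = 0.0991). Atp5e, the small epsilon subunit of the central stalk, was singled out because its direction turned with the scale. It fell by 0.31 in Clec9a gfp/gfp cells and by 0.27 in WT cells on the deposited scale and rose by 0.32 and 0.31 after quantile normalization, each past the threshold.

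Differences between complexes can also be read within each array, where a common scaling factor cancels except for rows near the added 16, such as Cox7b and Cox7b2. A difference between arrays that depends on intensity does not cancel, and the upper quartile differed more with treatment than the median did. The mean log2 value of complex I minus that of complex IV was 0.20 to 0.42 on the Clec9a gfp/gfp arrays with dead cells, against 1.06 to 1.32 on the untreated ones, and 0.34 to 0.41 on the WT arrays with dead cells, against 1.13 to 1.28. The mean of complex I minus that of complex V was -1.84 to -1.61 on the Clec9a gfp/gfp arrays with dead cells, against -1.24 to -1.18 untreated, and -1.71 to -1.68 in WT cells with dead cells, against -1.27 to -1.15. The groups with and without dead cells did not overlap in either genotype for either difference. After quantile normalization the ranges were 0.36 to 0.55 against 0.93 to 1.16 for complex I minus complex IV in Clec9a gfp/gfp cells, and 0.50 to 0.56 against 0.99 to 1.16 in WT cells. Because dim rows hardly follow a scaling factor, the differences were also taken over members with a mean intensity of at least 100, which kept 26 genes of complex I, 6 of complex IV and 8 of complex V, a choice made after the data were seen. Complex I minus complex IV was then -1.25 to -1.06 on the Clec9a gfp/gfp arrays with dead cells, against -0.60 to -0.47 on the untreated ones, and -1.18 on each of the WT arrays with dead cells, against -0.49 to -0.38. After quantile normalization the same difference was -1.12 to -0.95 against -0.70 to -0.58 in Clec9a gfp/gfp cells, and -1.06 to -1.04 against -0.59 to -0.48 in WT cells. The groups remained apart, and the shift in Clec9a gfp/gfp and WT cells was smaller than with the dim rows. The sign and size of such a difference on a single array depend on the probes, and only its shift between groups can be read. The complexes were compared with these results already known, so no p is given.

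**Figure D4:**
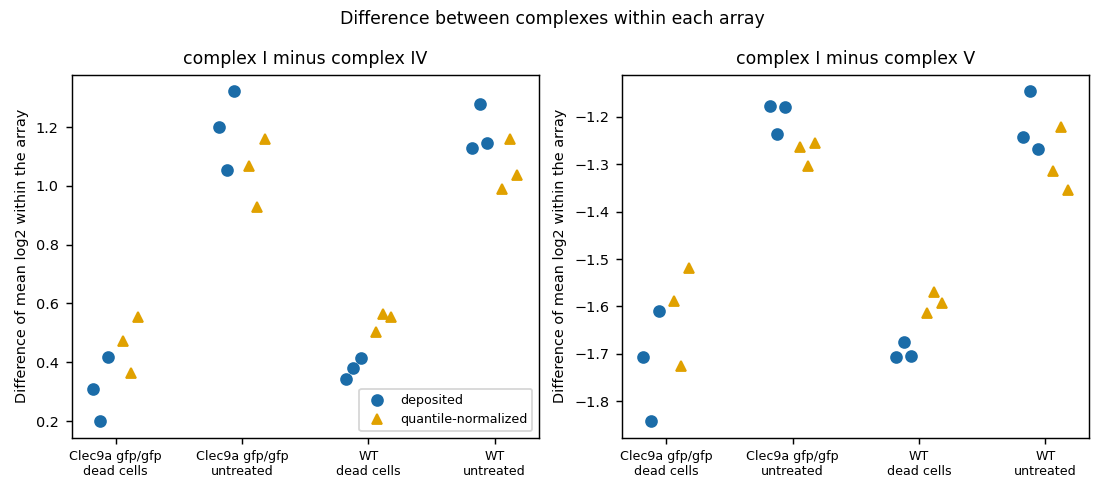
Mean log2(intensity + 16) of complex I genes minus that of complex IV genes (left) and of complex V genes (right) on each array; circles are the deposited scale and triangles the quantile-normalized scale, with 3 arrays in each group. On each scale all arrays with dead cells lie below all untreated arrays of the same genotype.

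Promoter sequences were looked at because members of several complexes moved together. RefSeq windows of GRCm38.p6, from 250 bases before to 50 after the start, were at hand for 49 of the 60 members (52 windows). Motifs of known regulators of respiratory genes were searched on both strands. The NRF1 motif CGCATGCG, which reads the same on both strands, was in 5 member windows (9.62%), against 1.87% of all 32851 windows and 2.52% of the windows of protein-coding genes. It stood in Ndufaf4, Ndufaf5, Ndufa8, Uqcrc1 and Cox6a1. The YY1 motif AAGATGGCG was also in 5 windows (9.62%), of Ndufs7, Ndufs4, Ndufs6, Ndufa9 and Atp5j2, against 1.40% of all and 1.83% of protein-coding windows. The ERR motif TNAAGGTCA was in those of Sdhd and Atp5g3 (3.85%), against 1.28% and 1.03%. The SP1 motif GGGCGGGG was in 12 windows (23.1%), against 17.6% and 23.6%, and the ETS and NRF-2/GABP motif CCGGAAGT was in 0 windows, against 3.89% and 5.15%. The SP1 letters overlap none of the others. These matches are descriptions of letters, and the motif-bearing genes include the deepest fall (Ndufaf4), the only rise (Atp5j2) and Cox6a1, whose WT change missed the threshold.

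The 3 stretches below, of 80 bases before the start, are shown because they hold the NRF1 motif upstream of the start in an assembly factor, a complex I subunit and a complex IV subunit. Capitals mark the motif. The Ndufaf4 stretch is chr4:24897935-24898014 on the plus strand, with its motif at -112. The Ndufa8 stretch is chr2:36049339-36049418 on the minus strand, with its motif at -9, and the Cox6a1 stretch is chr5:115349076-115349155 on the minus strand, with its motif at -161.
Ndufaf4: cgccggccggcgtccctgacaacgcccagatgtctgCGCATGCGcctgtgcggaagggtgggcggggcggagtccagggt
Ndufa8: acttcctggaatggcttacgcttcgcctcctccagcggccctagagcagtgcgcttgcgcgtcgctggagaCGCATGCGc
Cox6a1: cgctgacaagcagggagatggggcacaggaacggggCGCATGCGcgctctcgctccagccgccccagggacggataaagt

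Ndufa8 encodes a membrane arm subunit that faces the intermembrane space, and it was lower in every array with dead cells, at 305, 339 and 350 in Clec9a gfp/gfp cells against 1150, 1043 and 1177 untreated, and at 351, 328 and 295 in WT cells against 1061, 1086 and 1045. Its change was -1.71 ± 0.093 in Clec9a gfp/gfp cells and -1.67 ± 0.093 in WT cells. With the same letters upstream, Cox6a1 changed by -0.54 and -0.29.

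Genes around the respiratory chain mostly fell as well on the deposited scale. On that scale 32.1% of all rows fell in Clec9a gfp/gfp cells and 31.0% in WT cells. In the bright class of rows the shares were 56.9% and 54.3%. Whether any of the lists below differs from these shares was not tested. Of 17 measured genes of the TCA cycle and pyruvate dehydrogenase, which supply NADH and succinate, 17 fell in Clec9a gfp/gfp cells (median -1.24) and 16 in WT cells (median -1.40), and 13 and 14 fell after quantile normalization. Idh3a, the catalytic subunit of the NAD-dependent isocitrate dehydrogenase, had 65.3, 66.1 and 71.2 in Clec9a gfp/gfp cells with dead cells, against 626, 553 and 608 untreated, and 67.2, 56.5 and 53.1 in WT cells with dead cells, against 565, 597 and 551. Its change was -2.87 ± 0.093 in Clec9a gfp/gfp cells and -2.97 ± 0.093 in WT cells. Fh1, fumarase, changed by -2.59 ± 0.090 and -2.68 ± 0.090. Citrate synthase (Cs), the entry to the cycle and named after its values were seen, changed by only -0.20 in Clec9a gfp/gfp cells and -0.13 in WT cells.

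Most assembly genes outside the rule also fell on the deposited scale, which the list counts in this paragraph use. Of 10 further complex I assembly factors, 8 fell in each genotype, among them Dmac1 (-1.91 in Clec9a gfp/gfp cells and -1.86 in WT cells) and Foxred1 (-1.31 and -1.30). Both complex II assembly factors fell, with Sdhaf4 at -1.18 and -1.14, while Sdhaf2, which helps attach the flavin to Sdha, had changes of -0.54 and -0.48 that became 0.21 and 0.20 after quantile normalization. Of 7 complex III genes, 6 fell in each genotype, including Cyc1, the cytochrome c1 subunit (-1.35 and -1.23), and Bcs1l, which inserts the Rieske protein (-1.87 and -1.74). For ATP synthase, 4 of 5 fell in each genotype, with Atpaf2, an assembly factor of the catalytic head, at -2.16 and -1.73 and Atpif1, its natural inhibitor, at -0.73 and -0.77. The fifth, Tmem70, an assembly factor named after its values were seen, rose in WT cells (0.41, adjusted p = 0.0308) and changed by 0.21 in Clec9a gfp/gfp cells (adjusted p = 0.234).

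The assembly factors of complex IV had a lower median than its subunits on the deposited scale, a difference that was not tested. Of 19 measured, 13 fell and 1 rose in each genotype on the deposited scale, with a median of -1.04 in each. After quantile normalization 11 fell and 6 rose in Clec9a gfp/gfp cells, and 12 fell and 5 rose in WT cells. Coa8 changed by -1.95 in Clec9a gfp/gfp cells and by -1.94 in WT cells, and Surf1, whose human counterpart is mutated in Leigh syndrome, by -1.30 and -1.17. The gene that rose on both scales was Cmc2, named after its values were seen, at 1100, 1010 and 1133 in Clec9a gfp/gfp cells with dead cells against 319, 402 and 350 untreated, and at 1315, 945 and 1148 in WT cells against 341, 353 and 316. Its change was 1.56 ± 0.13 in Clec9a gfp/gfp cells and 1.70 ± 0.13 in WT cells.

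Of 16 electron carrier and ubiquinone synthesis genes, 13 fell and 2 rose in each genotype on the deposited scale. Their medians were -1.14 in Clec9a gfp/gfp cells and -1.02 in WT cells. Coq5, a methyltransferase of ubiquinone synthesis, changed by -1.88 and -1.96, and Etfb, which brings electrons from fatty acid oxidation, by -1.66 and -1.69. The risers, named after their values were seen, were Gpd2 and Coq10b. Gpd2, the mitochondrial glycerol-3-phosphate dehydrogenase that feeds ubiquinone with electrons from glycolysis, changed by 1.23 ± 0.098 in Clec9a gfp/gfp cells and by 1.46 ± 0.098 in WT cells.

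Of 18 regulators of mitochondrial biogenesis, 11 fell in each genotype on the deposited scale, and 0 rose in Clec9a gfp/gfp cells and 1 in WT cells. The share that fell was 61.1%. Over all rows 32.1% fell in Clec9a gfp/gfp cells and 31.0% in WT cells, and in the bright class of rows 56.9% and 54.3%. Polg and Tfb1m were dimmer than the bright class, so that class is not a matched background for this list. Polg, the polymerase of mitochondrial DNA, changed by -1.67 and -1.60, and Tfb1m, which modifies mitochondrial ribosomal RNA, by -1.79 in each genotype. Ppargc1a and Nrf1, known activators of respiratory genes that were named after their values were seen, did not pass the test on the deposited scale, with changes of 0.24 and -0.10 in Clec9a gfp/gfp cells and of 0.0071 and 0.045 in WT cells. Nrf1 rose after quantile normalization, by 0.62 and 0.70, while Ppargc1a was dim, at 10.8 to 26.6 on all arrays. Of 12 genes of mitochondrial import and chaperones, 9 fell and 2 rose in each genotype on the deposited scale. Timm50 changed by -1.76 in Clec9a gfp/gfp cells and -1.73 in WT cells, and the prohibitin Phb2 by -1.31 and -1.27.

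Inhibitors and switches of respiration were the list without a common direction, with 5 of 12 higher and 5 of 12 lower in each genotype and medians of 0.057 in Clec9a gfp/gfp cells and 0.045 in WT cells. After quantile normalization 8 were higher and 3 lower in each. Bnip3, a mitochondrial protein that marks mitochondria for removal, had 1027, 980 and 1104 in Clec9a gfp/gfp cells with dead cells, against 221, 176 and 164 untreated, and 1177, 1061 and 1201 in WT cells with dead cells, against 160, 148 and 186. It changed by 2.38 ± 0.12 in Clec9a gfp/gfp cells and by 2.69 ± 0.12 in WT cells. Pdk3, a kinase that shuts off pyruvate dehydrogenase, changed by 1.46 ± 0.082 and 1.49 ± 0.082. Nos2, the inducible nitric oxide synthase, was named after its values were seen. It had 268, 268 and 177 in Clec9a gfp/gfp cells with dead cells, against 45.5, 41.0 and 40.5 untreated, and 176, 199 and 157 in WT cells with dead cells, against 38.3, 41.5 and 40.6.

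**Figure D5:**
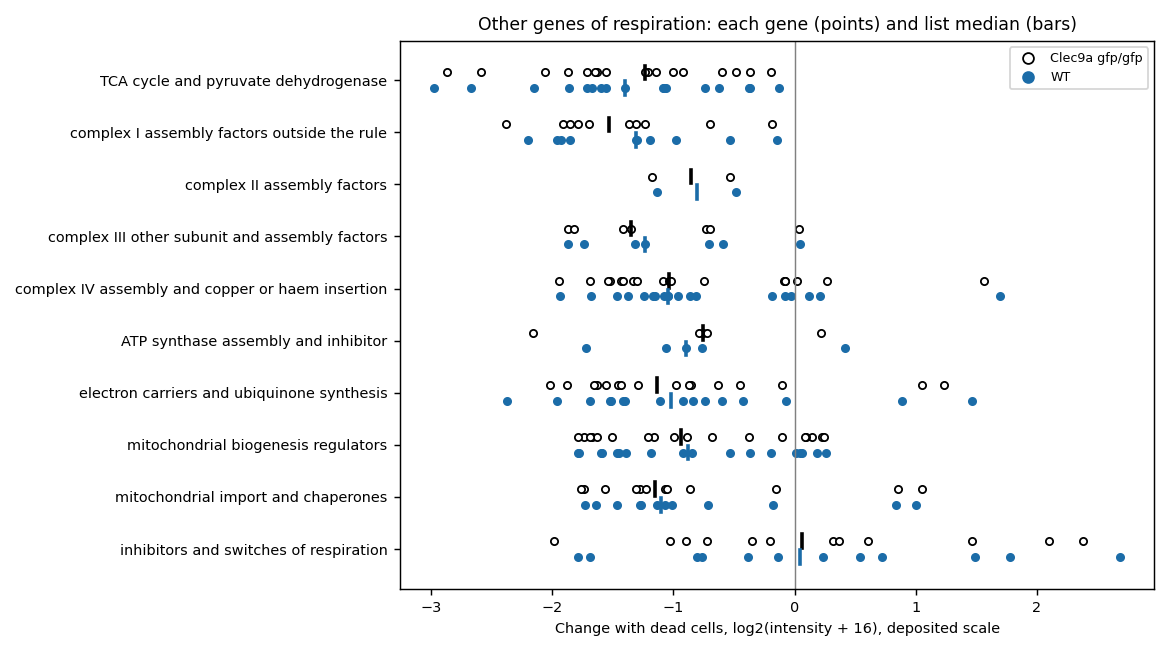
Change with dead cells of other genes of respiration on the deposited log2(intensity + 16) scale, with a point for each gene and a bar for each list's median; open points and black bars are Clec9a gfp/gfp cells, filled points and blue bars WT cells. List medians run from -1.53 to 0.057 in Clec9a gfp/gfp cells and from -1.40 to 0.045 in WT cells, and the inhibitors and switches of respiration spread to both sides of 0.

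Markers of cDC1 and of other cells moved with the same treatment. The summed intensity of the 10 measured cDC1 markers was 14402 to 14965 in Clec9a gfp/gfp cells with dead cells, against 40846 to 44488 untreated. In WT cells it was 15795 to 17010 with dead cells, against 43808 to 48168. All 12 measured monocyte and macrophage markers fell in each genotype, with a summed intensity of 1207 to 1708 in Clec9a gfp/gfp cells with dead cells, against 16854 to 18720 untreated, and 1312 to 1578 in WT cells with dead cells, against 14118 to 21814. Mertk was below 16 on 2 arrays, and the other macrophage markers were above it on every array. Ngp, Cpa3, Fcer1a and the lymphocyte marker Cd3g were each below 16 on 6 arrays. All 7 stromal markers also fell, as did 6 of 7 neutrophil, mast cell and erythroid markers, whose sum was 401 to 485 in Clec9a gfp/gfp cells with dead cells, against 1989 to 20686 untreated, and 312 to 408 in WT cells with dead cells, against 7983 to 14371. Of 7 lymphocyte markers, 2 fell in each genotype and 1 rose in Clec9a gfp/gfp cells, and of 6 plasmacytoid dendritic cell markers 3 fell in Clec9a gfp/gfp cells, 2 fell in WT cells and 1 rose in each. On the deposited scale 32.1% of all rows fell in Clec9a gfp/gfp cells and 31.0% in WT cells. The plasmacytoid sum was 2280 to 2361 in Clec9a gfp/gfp cells with dead cells, against 1843 to 2100 untreated. In WT cells it was 2182 to 2351 with dead cells, against 1699 to 1911. The sort was for CD11b-low and B220-negative cells, while most neutrophils and macrophages are high in CD11b and plasmacytoid cells are B220+. The marker sums above were measured after that sort. The part of cells other than cDC1 in the falls of respiratory genes was not tested. In such bulk samples, fewer cells of a type and less RNA per cell cannot be told apart.

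No member's response differed between the genotypes by the test of that difference. In the comparison of responses 0 members passed the threshold on either scale, with 0.00430% of all rows called on each. On the deposited scale 0 members had an unadjusted p under 0.05 in limma, and after quantile normalization 1 had, Cox8b (0.67, unadjusted p = 0.0456, adjusted p = 0.990). On the deposited scale the Clec9a gfp/gfp response minus the WT response ran from -0.81 (Ndufa7) to 0.69 (Cox8b), with a median of -0.060. For 58 of the 60 members the 95% interval of this difference lay within 2-fold in either direction. The exceptions were Ndufa7 (-2.17 to 0.56) and Cox8b (-0.015 to 1.39), both dim. The share of all rows with an interval within 2-fold is not given here. The other members with the smallest p were Cox7a2, at -0.34 ± 0.20 (-0.77 to 0.090), and Ndufv1, at -0.20 ± 0.13 (-0.50 to 0.089).

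Nor did a member pass the threshold between the genotypes within a treatment. Among untreated cells 0 members were called on either scale, with 0.0301% of all rows called on the deposited scale and 0.0215% after quantile normalization, and 3 members had an unadjusted p under 0.05 on the deposited scale. They were Cox6a2 (0.41 ± 0.16), Ndufb3 (0.30 ± 0.12) and Ndufs8 (0.20 ± 0.083), each higher in Clec9a gfp/gfp cells, with adjusted p-values near 1, and Ndufb3 and Cox6a2 were also under it after quantile normalization. With dead cells 0 members were called on either scale, with 0.00430% of all rows called on the deposited scale and 0.0129% after quantile normalization. No member had an unadjusted p under 0.05 on the deposited scale, where the smallest belonged to Ndufaf2 (0.40 ± 0.19), Ndufs1 (-0.22 ± 0.10) and Ndufa7 (-0.90 ± 0.43). After quantile normalization 3 members had one, namely Ndufaf2 (0.47 ± 0.18), Ndufb2 (-0.40 ± 0.16) and Ndufs1 (-0.19 ± 0.078), with adjusted p-values of 0.632, 0.642 and 0.653. On the deposited scale the 95% interval lay within 2-fold for 59 of 60 members in each treatment. The shares of all rows with an unadjusted p under 0.05, or with an interval within 2-fold, are not given here. The counts of members at these 2 cuts therefore do not set the members apart. The Clec9a gfp/gfp and WT responses share no arrays, though limma estimates their spread together.

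Replicate 2 of untreated Clec9a gfp/gfp cells was the lowest of its group for 38 of the 60 members and the highest for 17. It had 423 for Ndufs4 against 691 and 705, 267 for Uqcr10 against 393 and 523, 410 for Cox7a2 against 629 and 592, and 681 for Atp5mpl against 1161 and 1262. It was above its group mates for others, with 3235 for Cox6b1 against 2799 and 2577 and 1217 for Ndufb7 against 932 and 940, all named after their values were seen. The array's median intensity over all rows was 93.6, against 101 and 98.3 on its group mates, and its upper quartile was 400 against 426 and 437. How many of all rows were lowest on this array was not counted. The sum of the neutrophil, mast cell and erythroid markers was 1989 on that array and 11805 and 20686 on the other two. Without it 54 members fell and 2 rose in the Clec9a gfp/gfp response, the second riser being Cox4i2 (0.25, limma, adjusted p = 0.0489), and the median was -0.87. Cox6a2 then fell in Clec9a gfp/gfp cells (-0.46, adjusted p = 0.0368), and Cox7a2 in WT cells (adjusted p = 0.00463). The WT estimate of Cox7a2 stayed at -0.35, and only the spread that limma shares between groups differed.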

How the data were processed

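Per the labels' protocols, RNA of 12 sorted samples was column-purified, depleted of ribosomal RNA and biotin-labelled for Affymetrix whole-transcript arrays. The authors deposited an intensity, linear as judged from its values, for each of 23238 rows. The submitters' processing notes name the build mm8, and software and normalization were not given in the sources used here. Annotation of the platform paired 14939 rows with 1 symbol and 989 with several, and 7310 were not listed in it. All 60 members matched RefSeq (GRCm38.p6) by gene ID. Probe sequences were not used here, so signal shared with processed pseudogenes, which many of these genes have, could not be separated.

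The values were converted to log2(intensity + 16), which understates the change of dim genes. Intensities under 16 made up 11.5% to 15.2% of each array. Groups followed the labels. A model with 4 group means over all 12 arrays was fitted to every row with limma 3.58.1 under R 4.3.3 (moderated, two-sided test), which was tested on simulated data. The smallest p of an exact permutation test of 3 against 3 arrays is 0.1, so limma's adjusted p-values are printed. No scan batch was used here. Same-numbered samples correlated at -0.16 to 0.13 over 18 pairs (2 above 0.1), so the numbers pair nothing.

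Members, lists and tests were chosen with earlier results of these data known. The members named were the 3 largest falls and 2 largest rises past the threshold in WT cells per complex, the complex IV pairs and subunit c genes, and the 3 smallest p-values between genotypes. Each list gave its 2 smallest p-values in WT cells. Exceptions are marked in the text. Alternatives were quantile normalization, a shift to one median, pseudocounts of 1 and 64, leaving out the dimmest 25% of rows, trended and robust eBayes, a fit of only the groups compared, a replicate block and leaving out each array.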

Additional observations from a re-analysis of the deposited data

How the results depend on the processing

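The direction of the members' median change, lower with dead cells, was the same under every alternative run, while counts and sizes depended on the scaling. Quantile normalization gave 33 members lower and 3 higher with a median of -0.47 in Clec9a gfp/gfp cells, and 3 higher with a median of -0.41 in WT cells. It turned the median of complex IV to 0.077 in Clec9a gfp/gfp cells and that of complex III to 0.15 in WT cells. Besides Atp5e, Ndufaf3, Ndufa1 and other genes named after their values were seen, it turned Cox6a2 (0.16), Cox7a2 (0.00487), Sdhaf2 (0.21) and Uqcrfs1 (0.22) in Clec9a gfp/gfp cells, and Cox6a2 (0.27), Cox7a2 (0.29), Cox7b2 (0.029), Sdhaf2 (0.20) and Uqcrfs1 (0.21) in WT cells. A shift to one median gave 2 members higher and a median of -0.55 in Clec9a gfp/gfp cells and a median of -0.52 in WT cells, and turned Cox6a2 (0.14) and Cox7b2 (0.20) in WT cells. With a pseudocount of 64 the WT median was -0.67. A fit of only the groups compared left 0 members higher in Clec9a gfp/gfp cells (Atp5j2, adjusted p = 0.0991). Why the scalings differ was not tested. Leaving out single arrays gave 49 to 54 members lower, 0 to 2 higher and a median of -0.87 to -0.76 in Clec9a gfp/gfp cells, and 44 to 50 lower, 0 to 1 higher and -0.76 to -0.71 in WT cells. It turned the sign of the dim Cox7b and Cox7b2, and of Cox6a2. In Clec9a gfp/gfp cells Cox7b2 ran from -0.018 (without untreated replicate 2) to 0.24. In WT cells Cox6a2 ran from -0.20 to 0.042 (without dead-cell replicate 3) and Cox7b from -0.071 (without untreated replicate 3) to 0.33. Cox7b2 ran from -0.16 to 0.095 in WT cells (turned without dead-cell replicate 2 or 3 or untreated replicate 3). The counts of 0 members in the genotype comparisons were 0 to 0 when single arrays were left out. With the replicate number as a block, 0 members rose in Clec9a gfp/gfp cells (Atp5j2 0.38, adjusted p = 0.0597), and no other count of members differed by over 1.5 times. Each member has a single row, so averaging a gene's rows changes nothing and was not run. Cox7b2, Cox7b and Ndufa7 are close to the added 16, so their changes carry little information.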
